A study of Mus musculus with 8 samples.

Results

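Genes of protein folding and quality control in the endoplasmic reticulum, together with the sensors of the unfolded protein response, were examined in mouse morulae after knockdown of P150. The set comprised 35 genes, chosen by name and matched to array probes through RefSeq symbols and aliases, of 20660 genes with a named probe. All 35 had a probe, 45 probes in all, and 34 genes (43 probes) were measured well enough to test, of 14601 genes tested. The exception was Hyou1, a large chaperone of the reticulum. By role they were 4 sensors and signalling genes, 15 chaperones and folding enzymes, 9 genes of degradation and 7 genes of translocation.

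Secreted and membrane proteins enter the endoplasmic reticulum through the Sec61 channel, fold there with the help of chaperones and disulfide isomerases, and are sent back to the cytosol for destruction by the proteasome when they fail to fold. When unfolded proteins build up, the sensors IRE1 (Ern1), PERK (Eif2ak3) and ATF6 start the unfolded protein response. IRE1 splices the mRNA of Xbp1, PERK slows translation and lets ATF4 be made, and ATF6 is cleaved into a transcription factor. Together these factors raise chaperone and degradation genes, among them Hspa5, Herpud1 and Dnajb9. The response has also been studied in cultured preimplantation embryos.

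RNA of embryos from a pair of groups was hybridised to one-colour arrays. P150KD embryos (5 arrays) had received siRNA against P150, and siControl embryos (3 arrays) a control siRNA. P150, the product of Chaf1a, belongs to CAF-1, which deposits histones on newly copied DNA. Both groups were fertilised in vitro, injected as zygotes, cultured in KSOM medium and collected as morulae at embryonic day 3.0, with 10 embryos pooled per array. Injection is shared by both groups, and uninjected embryos were not analysed here. The strain is not given in the sources used here. The labels do not say that arrays came from separate collections, so the spread that the p-values measure may be technical.

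Levels are given as log2 signal minus that of the 75th percentile probe on the same array, and each difference is P150KD minus siControl. RNA was amplified and an equal mass labelled, so fewer cells of a type and less RNA per cell cannot be told apart. Chaf1a stood at -0.62 ± 0.85 (SD, n = 5) in P150KD and 2.25 ± 0.16 (SD, n = 3) in siControl (limma adjusted p = 0.0107). On each array 50.1% to 55.9% of spots were well above background and 0 were saturated. All 12 morula markers were measured, 5 of which fell, and their level, summed in multiples of the 75th percentile signal, was 420 to 502 in P150KD and 691 to 754 in siControl. Markers of the 2-cell stage summed to 27.1 to 156 in P150KD and 5.13 to 8.01 in siControl (7 of 11 measured rose). Oocyte markers summed to 10.1 to 16.6 in P150KD and 5.67 to 8.23 in siControl (1 of 7 rose). Leukocyte markers (7 of 12 measured) summed to 4.82 to 10.2 in P150KD and 1.49 to 2.03 in siControl (3 of 7 rose). Those that rose were Cd74, Coro1a and Srgn, while Cd52 and Fcer1g had the lower signal in P150KD without passing. Ptprc, Laptm5, Lyz2 and Tyrobp were well above background on 0 arrays. Sperm markers (5 of 9 measured) summed to 0.278 to 1.98 in P150KD and 0.138 to 0.252 in siControl, and cumulus markers (2 of 10 measured) to 1.47 to 2.60 in P150KD and 1.38 to 3.11 in siControl, with 0 past the threshold in either list (limma; sperm 2 and cumulus 0 at an unadjusted p under 0.05, and 1 and 0 with trend and robust estimation). The part of these shifts in the results that follow was not tested.

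In P150KD morulae 2 of the 34 genes tested rose, Herpud1 and Dnajb9, and 5 fell, Derl2, Sel1l, Derl1, Ssr1 and P4hb. The other 27 did not pass the threshold, a limma adjusted p under 0.05. The rises were 5.88% of the set and the falls 14.7%, against 6.65% and 10.5% of all genes tested (17.1% in either direction), so the counts were close to those of genes at large. The median difference of the set was -0.25, with a range of -1.28 to 1.83, and that of all genes was -0.24. Signal in P150KD was higher for 15 genes and lower for 19. The arrays of the groups did not overlap for 4 genes with the higher signal in P150KD (background 10.2%) and for 11 with the lower (background 21.8%). Scaled to a list of housekeeping genes, 4 genes rose and 1 fell, while the median of all genes was 0.16. With quantile normalization, or scaling to the array median, 2 rose and 1 fell. The gene that still fell was Derl2 under each of these scalings, while Sel1l, Derl1, Ssr1 and P4hb lost their calls. At an unadjusted p under 0.05 the set had 4 genes higher and 10 lower, where all genes had 12.7% higher and 22.9% lower. With limma's trend and robust estimation 4 rose and 10 fell, where 8.19% of all genes rose and 14.8% fell.

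**Figure D1:**
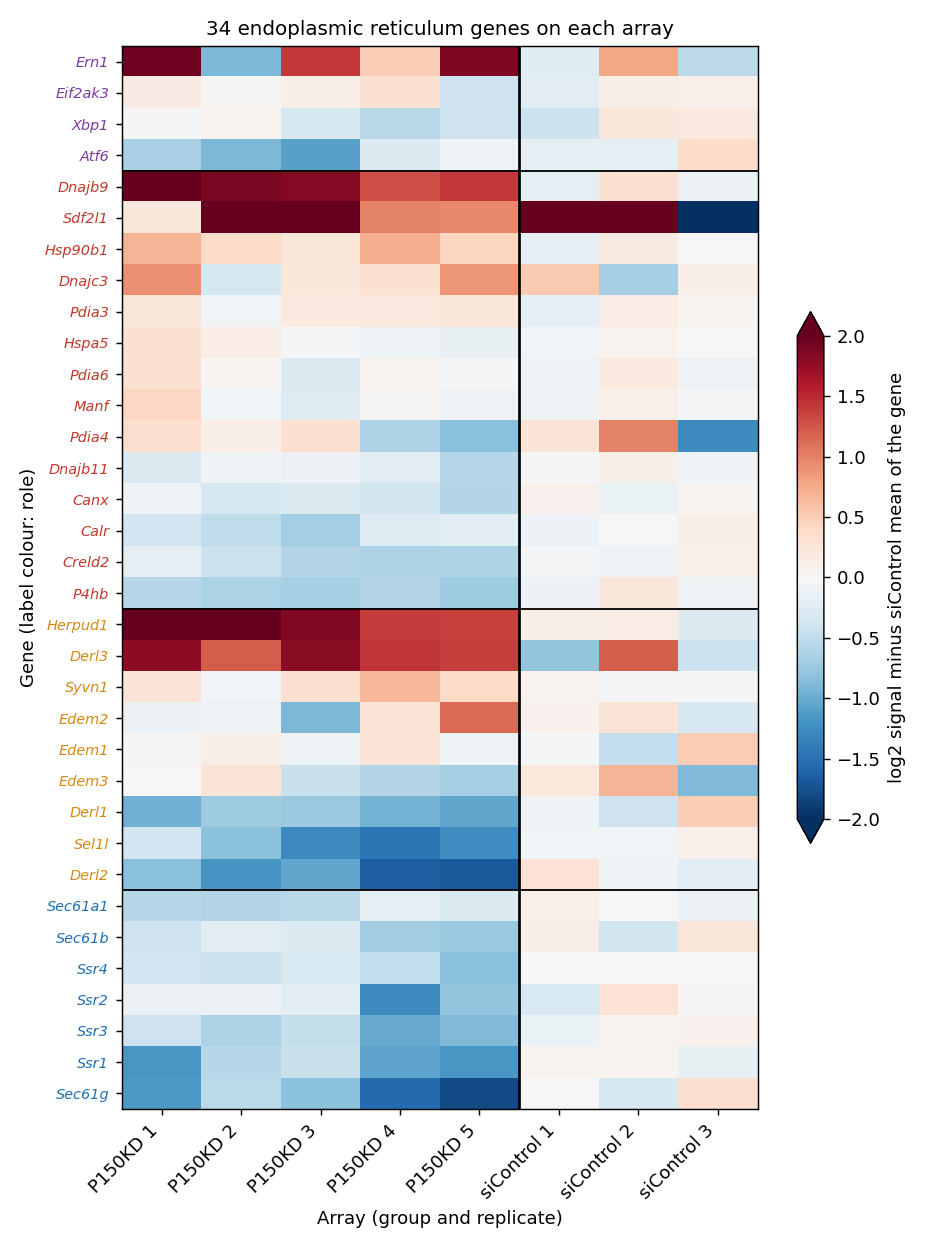
Heat map of the 34 tested genes (rows, by role) on the 8 arrays (columns, P150KD left of siControl), coloured by the log2 difference from the siControl mean of each gene, with the scale limited to -2 to 2. Herpud1 and Dnajb9 are high on all 5 P150KD arrays, and all 7 translocation genes are below their siControl mean on each of these arrays.

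The genes that rose were a degradation gene and a co-chaperone. Herpud1 encodes a membrane protein of the reticulum that helps assemble the degradation machinery and is induced by the unfolded protein response. Its probe read 4.93, 5.17, 4.63, 4.19 and 4.16 on the P150KD arrays, against 2.91, 2.94 and 2.52 on the siControl arrays. The groups were well apart, with the lowest P150KD array above every siControl array. The means were 4.62 ± 0.44 (SD, n = 5) in P150KD and 2.79 ± 0.23 (SD, n = 3) in siControl, a 3.55-fold higher signal (log2 difference 1.83, SE 0.29, limma adjusted p = 0.00896).

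Dnajb9, also called ERdj4, is a co-chaperone of Hspa5 that binds misfolded proteins and damps IRE1. It read 5.36, 4.98, 4.92, 4.37 and 4.49 on the P150KD arrays, against 2.89, 3.40 and 2.97 on the siControl arrays. The groups again did not overlap, and the signal was 3.34-fold higher (log2 difference 1.74, SE 0.27, limma adjusted p = 0.00882). A second Dnajb9 probe also rose, with 2.21, 1.85, 1.64, 1.84 and 1.73 in P150KD, against 0.21, 0.31 and 0.73 in siControl (log2 difference 1.44, adjusted p = 0.00692). Neither gene lost its call when any of the 8 arrays was left out. The position of an array on the slide was also used as a block. The first position number puts P150KD replicate 1 with the 3 siControl arrays, so that fit compares 1 P150KD array with them. Its log2 differences were 2.14 for Herpud1 and 2.27 for Dnajb9. With the second position number they were 1.87 and 1.67, and neither gene passed (limma adjusted p 0.0877 and 0.104).

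The promoters of these genes are shown beside those of Hspa5, the best known target of the response, and Derl3, the gene with the next largest difference, because stress-response elements have been described in promoters of this pathway. Each is 300 bases on the strand of the gene, 250 before the start site and 50 from it on, from RefSeq (GRCm38.p6). They lie at chr8:94386179-94386478 (plus strand, Herpud1), chr12:44210019-44210318 (minus strand, Dnajb9), chr10:75893148-75893447 (plus strand, Derl3) and chr2:34771840-34772139 (plus strand, Hspa5). Capitals mark matches to any of 4 motifs searched on both strands, which are listed with the results on promoters.
Herpud1: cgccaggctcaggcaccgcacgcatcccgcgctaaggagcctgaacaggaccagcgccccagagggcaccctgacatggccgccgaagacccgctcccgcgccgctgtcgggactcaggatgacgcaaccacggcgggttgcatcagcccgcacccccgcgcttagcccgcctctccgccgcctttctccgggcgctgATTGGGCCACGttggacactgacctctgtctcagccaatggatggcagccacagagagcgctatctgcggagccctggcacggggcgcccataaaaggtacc
Dnajb9: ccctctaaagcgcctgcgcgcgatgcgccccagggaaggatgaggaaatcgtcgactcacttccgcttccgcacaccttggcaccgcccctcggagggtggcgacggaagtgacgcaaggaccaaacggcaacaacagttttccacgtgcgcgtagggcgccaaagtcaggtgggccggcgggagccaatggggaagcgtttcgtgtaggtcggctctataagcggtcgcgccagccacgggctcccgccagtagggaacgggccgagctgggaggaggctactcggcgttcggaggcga
Derl3: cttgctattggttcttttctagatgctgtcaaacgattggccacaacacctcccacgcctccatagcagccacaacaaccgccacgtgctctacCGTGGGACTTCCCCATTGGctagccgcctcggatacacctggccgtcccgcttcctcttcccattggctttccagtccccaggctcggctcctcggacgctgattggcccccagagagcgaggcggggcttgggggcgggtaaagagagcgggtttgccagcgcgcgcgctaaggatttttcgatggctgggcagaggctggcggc
Hspa5: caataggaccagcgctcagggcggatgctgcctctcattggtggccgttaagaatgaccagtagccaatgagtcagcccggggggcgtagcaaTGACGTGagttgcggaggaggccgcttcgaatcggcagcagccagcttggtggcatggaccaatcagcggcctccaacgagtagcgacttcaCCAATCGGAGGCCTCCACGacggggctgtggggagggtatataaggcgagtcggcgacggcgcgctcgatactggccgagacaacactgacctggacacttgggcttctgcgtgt

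None of the 4 sensors and signalling genes passed the limma test in either direction, where 17.1% of all genes did. At an unadjusted p under 0.05 there were 0, where all genes had 12.7% higher and 22.9% lower. With trend and robust estimation 0 passed, where 8.19% of all genes rose and 14.8% fell. A list of 4 genes is too short to be set apart from these shares. Eif2ak3, the kinase PERK, read 2.85, 2.71, 2.82, 2.99 and 2.26 in P150KD, against 2.46, 2.80 and 2.78 in siControl. These overlapped throughout, and the 95% interval of the log2 difference was -0.45 to 0.54. Ern1, the kinase and endonuclease IRE1, was dim and uneven, with -1.08, -3.91, -1.60, -2.53 and -1.15 in P150KD, against -3.27, -2.24 and -3.55 in siControl. The interval of its difference of 0.96 ran from -0.66 to 2.59, too wide to show a change in either direction.

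Atf6, the membrane-bound transcription factor, read -0.53, -0.77, -0.97, -0.15 and 0.03 in P150KD, against -0.06, -0.06 and 0.48 in siControl (log2 difference -0.60, interval -1.27 to 0.07, adjusted p = 0.203). Most P150KD arrays were below the siControl arrays, with 1 exception. Xbp1, the factor made active by IRE1, read 4.37, 4.46, 4.07, 3.84 and 3.98 in P150KD, against 3.97, 4.62 and 4.59 in siControl (log2 difference -0.25, interval -0.81 to 0.31, adjusted p = 0.520). Its groups overlapped, and its splicing, the phosphorylation of PERK and IRE1 and the cleavage of ATF6 were not measured.

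**Figure D2:**
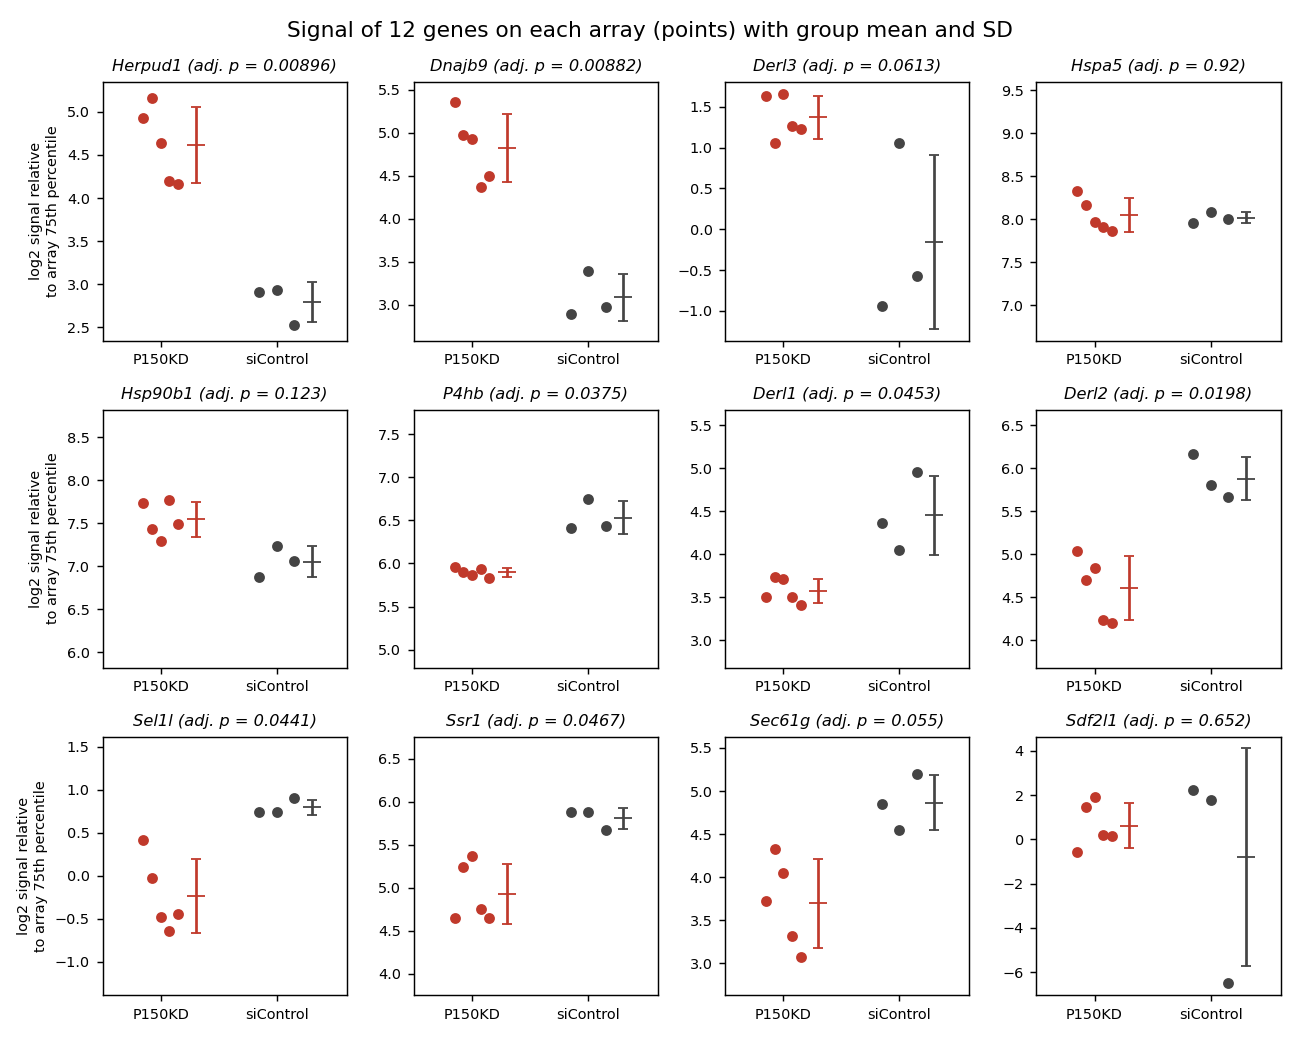
Log2 level (75th percentile probe of the array at 0) in 12 genes, one panel each, with a point for each array, P150KD (5 arrays) left of siControl (3 arrays), and bars for the mean and SD. Herpud1 and Dnajb9 stand apart upward and Derl2 downward, while Hspa5 overlaps between the groups.

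Among the 14 chaperones and folding enzymes tested, 1 rose (Dnajb9) and 1 fell (P4hb), and the median difference was 0.02. Each count was 7.14% of the 14, where 6.65% of all genes rose and 10.5% fell. Hspa5, the major chaperone of the reticulum and the gene most often read as a marker of the response, did not pass. It read 8.33, 8.17, 7.97, 7.91 and 7.87 in P150KD, against 7.96, 8.08 and 8.01 in siControl, so that the groups overlapped. The log2 difference was 0.03, with an interval of -0.37 to 0.43 (limma adjusted p = 0.920). Over the 21 alternative settings the Hspa5 difference ran from -0.04 to 0.43 without passing in any. It was highest with scaling to the housekeeping list (limma adjusted p = 0.114), and was 0.25 with quantile normalization (0.313).

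Hsp90b1, the chaperone GRP94, read 7.74, 7.43, 7.29, 7.77 and 7.49 in P150KD, against 6.87, 7.23 and 7.06 in siControl. Its groups did not overlap, but the log2 difference of 0.49 (SE 0.19) had a limma adjusted p of 0.123. Hsp90b1 passed in 2 of the 21 alternative settings, trend and robust estimation (0.0409) and scaling to the housekeeping list (0.0307). In the others the adjusted p went up to 0.414. P4hb, a protein disulfide isomerase, fell. It read 5.96, 5.90, 5.87, 5.94 and 5.83 in P150KD, against 6.41, 6.75 and 6.43 in siControl (log2 difference -0.63, SE 0.16, adjusted p = 0.0375). Its P150KD arrays lay close together and all below the siControl arrays. Leaving out any of the 8 arrays ended the P4hb call (adjusted p 0.0622 to 0.124). So did scaling to the housekeeping list, where the difference was -0.23 (limma adjusted p = 0.418).

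The other isomerases did not pass, with log2 differences of 0.16 for Pdia3, -0.13 for Pdia4 and 0.02 for Pdia6 (adjusted p 0.541 to 0.962). Nor did the lectin chaperones Calr (-0.41) and Canx (-0.33), which hold newly made glycoproteins, or the Hspa5 co-chaperones Dnajb11 (-0.25) and Dnajc3 (0.39), with adjusted p from 0.168 to 0.526. Manf, a secreted protein induced by stress of the reticulum, differed by 0.01 and Creld2, another such protein, by -0.49 (adjusted p 0.968 and 0.099). Creld2 did not overlap between the groups, with 5.99, 5.75, 5.61, 5.56 and 5.56 in P150KD, against 6.16, 6.11 and 6.29 in siControl.

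Sdf2l1, a partner of the Hspa5 chaperone cycle, had no settled direction. It read -0.59, 1.46, 1.91, 0.18 and 0.15 in P150KD, against 2.25, 1.80 and -6.49 in siControl, where siControl replicate 3 was not well above background. Its log2 difference was 1.44 (SE 1.94, adjusted p = 0.652), and -1.40 without that array (adjusted p = 0.276). Hyou1 was well above background on P150KD replicate 3 alone, at -0.77, and read from -7.39 to -6.19 on the other arrays.

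**Figure D3:**
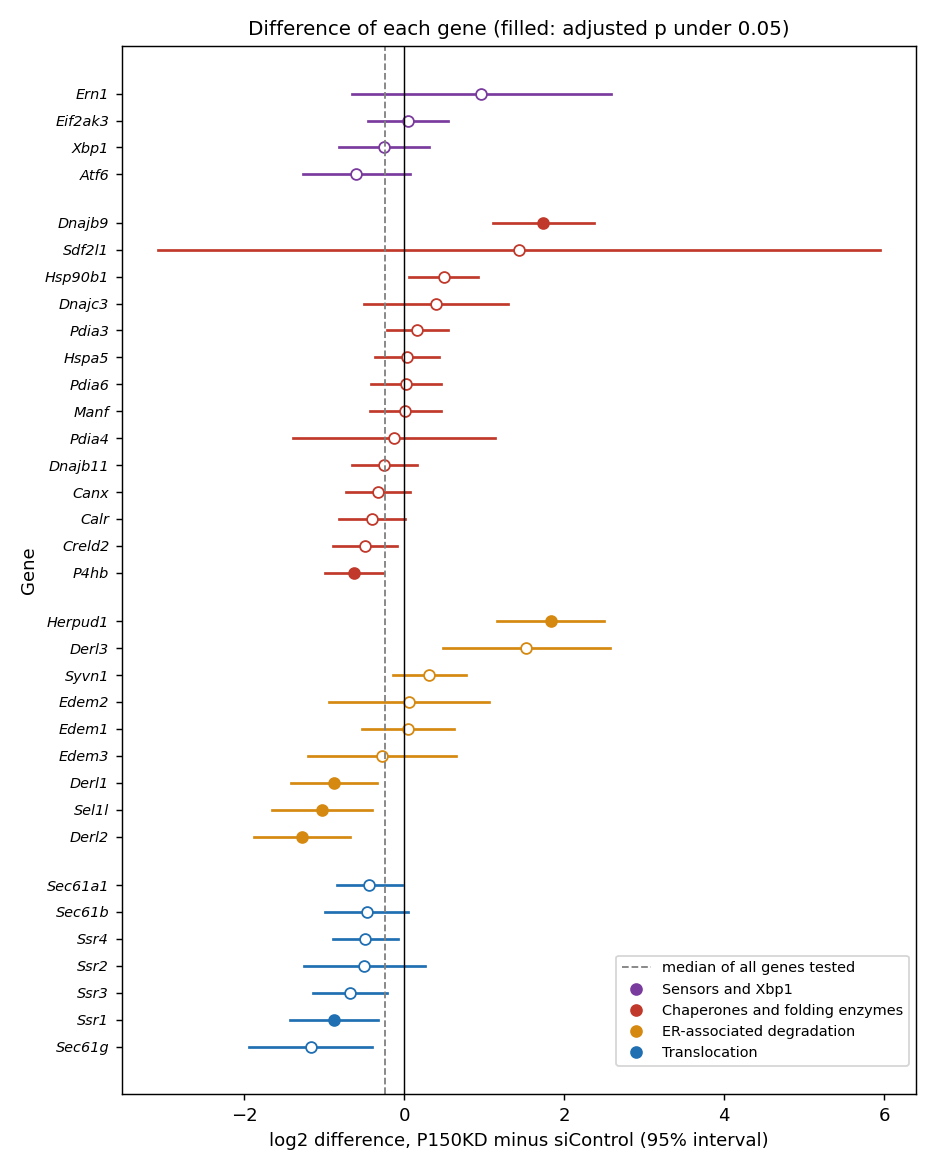
Log2 difference, P150KD minus siControl, of the 34 tested genes grouped by role, with 95% intervals; filled points passed an adjusted p under 0.05 and the dashed line is the median of all genes, -0.24. Of the 7 filled points, Herpud1 and Dnajb9 lie to the right and Derl2, Sel1l, Derl1, Ssr1 and P4hb to the left.

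The 9 degradation genes moved both ways, with 1 rise (Herpud1), 3 falls (Derl2, Sel1l and Derl1) and a median of 0.04, where 6.65% of all genes rose and 10.5% fell. Derl2 and Derl1, the derlins that help move misfolded proteins out of the reticulum, both fell. Derl2 read 5.04, 4.70, 4.84, 4.23 and 4.20 in P150KD, against 6.16, 5.81 and 5.67 in siControl (log2 difference -1.28, SE 0.26, limma adjusted p = 0.0198). Every P150KD array was below every siControl array, a 2.42-fold lower signal on average.

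The other Derl2 probes differed by -1.32 (adjusted p = 0.0327) and -1.22 (adjusted p = 0.0745), so 1 of the 3 did not pass. The first of them read 3.79, 3.14, 3.59, 2.70 and 2.74 in P150KD, against 4.71, 4.66 and 4.18 in siControl. The other read 3.03, 2.22, 1.72, 2.82 and 3.20 in P150KD, against 4.19, 3.42 and 3.86 in siControl. On all 3 probes the groups were separate. The Derl2 call was lost without siControl replicate 1 (adjusted p = 0.0794) and without siControl replicate 2 (0.0591).

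Derl1 read 3.50, 3.74, 3.71, 3.51 and 3.41 in P150KD, against 4.37, 4.05 and 4.95 in siControl (log2 difference -0.88, SE 0.23, adjusted p = 0.0453), and its second probe differed by -1.06 (adjusted p = 0.0343). Sel1l, the adaptor that holds the degradation complex together, read 0.42, -0.03, -0.49, -0.65 and -0.44 in P150KD, against 0.74, 0.74 and 0.90 in siControl (log2 difference -1.03, SE 0.27, adjusted p = 0.0441). For both genes the groups did not overlap. Both lost the call in 7 of the 8 fits that left out an array (adjusted p up to 0.113 for Derl1 and 0.124 for Sel1l).

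Derl3, a derlin induced by stress of the reticulum in other cells, had the higher signal in P150KD. It read 1.64, 1.06, 1.66, 1.27 and 1.23 in P150KD, against -0.94, 1.05 and -0.58 in siControl. The groups touched without overlapping, and siControl replicate 2 stood near the P150KD arrays. Its log2 difference of 1.53 (SE 0.45) had a limma adjusted p of 0.0613, and of 0.0105 without siControl replicate 2. Leaving out any other array gave 0.0803 to 0.184. Derl3 passed in 5 of the 21 alternative settings. Syvn1, the ubiquitin ligase HRD1 that works with Sel1l, differed by 0.31 (adjusted p = 0.319). The mannosidase-like genes Edem1, Edem2 and Edem3, which mark glycoproteins for disposal, differed by 0.04, 0.05 and -0.28 (adjusted p 0.667 to 0.943).

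The 7 translocation genes had lower signal in P150KD, 7 of 7, with a median difference of -0.50. Of these 1 passed the test (14.3%), where 10.5% of all genes fell. Of all genes, 38.7% had higher signal in P150KD and the rest lower or equal. For 5 of the 7 the groups did not overlap, all with the lower signal in P150KD, as for 21.8% of all genes. The housekeeping list was lower too under this scaling, with 15 of 17 tested genes lower and a median of -0.29. For 9 of those 17 (52.9%) the groups did not overlap, with the lower signal in P150KD. The mean over the 7 genes, as a difference from the siControl mean, was -0.60, -0.44, -0.44, -0.90 and -0.93 on the P150KD arrays, against -0.02, -0.04 and 0.06 on the siControl arrays. The 7 differences stayed below 0 under all 21 alternative settings, but some came close to it. Scaling to the housekeeping list brought Sec61a1 to -0.04, and the least negative values of Sec61b, Ssr4 and Ssr2 were -0.07, -0.09 and -0.10. With that list Ssr3, Ssr1 and Sec61g differed by -0.28, -0.48 and -0.77 without passing (limma adjusted p 0.344, 0.212 and 0.129).

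Ssr1, the alpha subunit of the translocon-associated complex that assists some proteins into the channel, was the gene that passed. It read 4.64, 5.24, 5.37, 4.75 and 4.64 in P150KD, against 5.88, 5.88 and 5.67 in siControl (log2 difference -0.88, SE 0.23, limma adjusted p = 0.0467). Its groups did not overlap. A second Ssr1 probe read 2.20, 1.31, 2.11, 0.82 and 2.23 in P150KD, against 3.03, 2.27 and 3.68 in siControl. Another read -0.23, 0.60, -0.42, -0.78 and 0.47 in P150KD, against 0.67, -0.20 and 1.74 in siControl. They differed by -1.26 and -0.81 and did not pass (adjusted p 0.107 and 0.316), the probe with -0.81 having overlapping groups. The Ssr1 call was lost in 6 of the 8 fits without an array (adjusted p up to 0.139).

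Sec61g, the gamma subunit of the channel, had the largest difference of the 7. It read 3.72, 4.33, 4.05, 3.32 and 3.07 in P150KD, against 4.85, 4.55 and 5.19 in siControl (log2 difference -1.17, SE 0.33, adjusted p = 0.0550). All P150KD arrays were below the siControl arrays. The channel subunits Sec61a1 and Sec61b differed by -0.44 and -0.47 (adjusted p 0.135 and 0.200). The other members of the Ssr complex, Ssr2, Ssr3 and Ssr4, differed by -0.50, -0.68 and -0.49 (adjusted p 0.335, 0.0613 and 0.105). With trend and robust estimation 5 of the 7 fell, where 14.8% of all genes did.

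**Figure D4:**
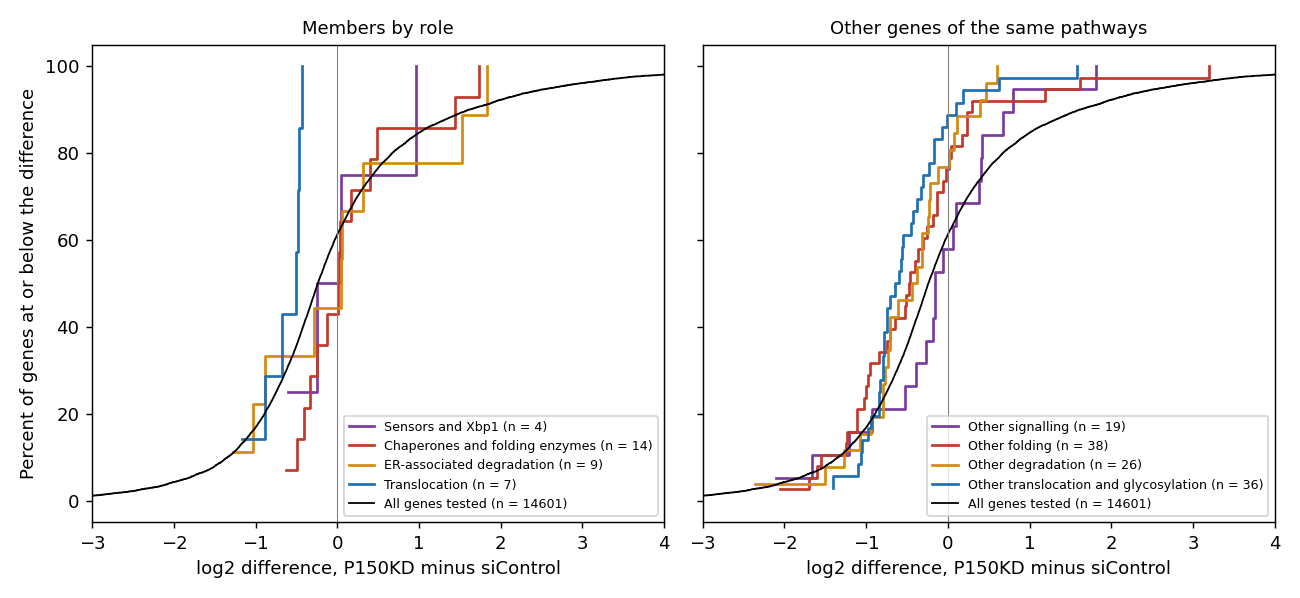
Cumulative share of genes against the log2 difference, P150KD minus siControl, for the members by role (left), for further genes of the pathway (right) and for all 14601 genes tested in both. The curve of the 7 translocation genes lies wholly left of 0, with a median of -0.50, against -0.24 for all genes.

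A wider set of 123 pathway genes outside the 35, of which 119 were tested, gave 2 rises and 23 falls, a median of -0.45, and 27 higher against 92 lower signals. The backgrounds are again 6.65% and 10.5%. In 36 tested genes of translocation, signal peptide removal and N-glycosylation 0 rose and 10 fell (limma; 1 higher and 19 lower at an unadjusted p under 0.05, and 0 and 14 with trend and robust estimation), with a median of -0.62. Of all genes 22.9% were lower at that unadjusted p and 14.8% fell with trend and robust estimation. They included Ddost and Rpn1 of the oligosaccharyltransferase (log2 differences -0.84 and -0.75) and the signal peptidase subunits Spcs1, Spcs2 and Spcs3 (-0.84, -1.06 and -0.79). Second probes of Spcs2 and Spcs3 differed by -1.43 and -1.06 without passing (adjusted p 0.206 and 0.103). In this list 32 of 36 genes had the lower signal in P150KD.

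Of 38 further folding genes 1 rose (2.63%) and 10 fell (26.3%), where 6.65% of all genes rose and 10.5% fell. Fkbp10, a collagen-assisting prolyl isomerase, read 2.45, 2.20, 2.18, 2.72 and 2.71 in P150KD, against -1.08, -0.13 and -1.03 in siControl, a 9.17-fold rise (adjusted p = 0.00172). Among those that fell were Fkbp11 (-1.70), Cnpy3 (-2.06), Dnajc10 (-1.24), Prdx4 (-1.11) and Mogs (-1.002), while the oxidase gene Ero1a differed by -0.84 without passing (adjusted p = 0.266). Of 26 further degradation genes 0 rose and 3 fell (11.5%, near the 10.5% of all genes), Selenok (-0.70), Jkamp (-1.50) and Aup1 (-0.94). At an unadjusted p under 0.05 limma gave 0 higher and 6 lower, where all genes had 12.7% higher and 22.9% lower. With trend and robust estimation 0 rose and 4 fell, where 8.19% of all genes rose and 14.8% fell. Second probes of Dnajc10 (-1.17) and Selenok (-1.30) did not pass (adjusted p 0.400 and 0.101).

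Of 19 further signalling genes 1 rose (5.26%), where 6.65% of all genes rose. It was Map3k5, the stress kinase ASK1, which rose by 1.81 (limma adjusted p = 0.00445), though its second probe differed by 0.10 (adjusted p = 0.880). Atf4, the factor translated when PERK is active, read 7.94, 7.73, 7.48, 7.63 and 7.35 in P150KD, against 7.04, 6.91 and 6.89 in siControl. Its groups did not overlap, and the log2 difference of 0.68 had an adjusted p of 0.0501. A second Atf4 probe, with overlapping groups, differed by 0.20 (adjusted p = 0.726). Ddit3, the proapoptotic factor CHOP, differed by 0.41 (adjusted p = 0.354) and Atf6b by 0.38 (adjusted p = 0.767).

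Promoter letters were set beside the responses as a description. Of the 35 genes 29 had a RefSeq promoter entry. The ER stress response element, ERSE, was searched as CCAAT and CCACG with any 9 bases between them. It is the site described for ATF6 with NF-Y, and 0.119% of all 32851 promoters held it, 9 of the 35 genes among them: Calr, Canx, Creld2, Derl3, Dnajc3, Hsp90b1, Hspa5, Pdia6 and Syvn1. None of these 9 passed the limma test, where 17.1% of all genes did. At an unadjusted p under 0.05 there were 3, where all genes had 12.7% higher and 22.9% lower. With trend and robust estimation 3 passed (Hsp90b1 and Derl3 higher, Creld2 lower in P150KD), where 8.19% of all genes rose and 14.8% fell. The 9 differences ran from -0.49 to 1.53 with a median of 0.03. ERSE-II, searched as ATTGG and CCACG with any 1 base between them, was in 0.0365% of promoters and in those of Herpud1, which rose, and Dnajb11, which did not pass.

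The core of the unfolded protein response element, TGACGTG, was in 2.01% of promoters and in Hspa5 alone of the set. The ATF4 element was searched only as TGATGNAAT, which was in 0.965% of promoters and in 0 of the set. Strings that differ from it by a letter were not counted. The Herpud1 promoter holds gttgcatca, where the reverse complement searched was ATTNCATCA. With the start site at 0, the Herpud1 match lay at -52 to -42, the Derl3 match at -156 to -138 on the opposite strand, and the Hspa5 matches at -65 to -47 and -157 to -151. No motif matched in 18 of the genes, of which 1 rose, Dnajb9, and 4 fell, where 6.65% of all genes rose and 10.5% fell. The 4 motifs did not overlap one another in the promoters printed, and a window with no match says only that these letters are not in it.

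**Figure D5:**
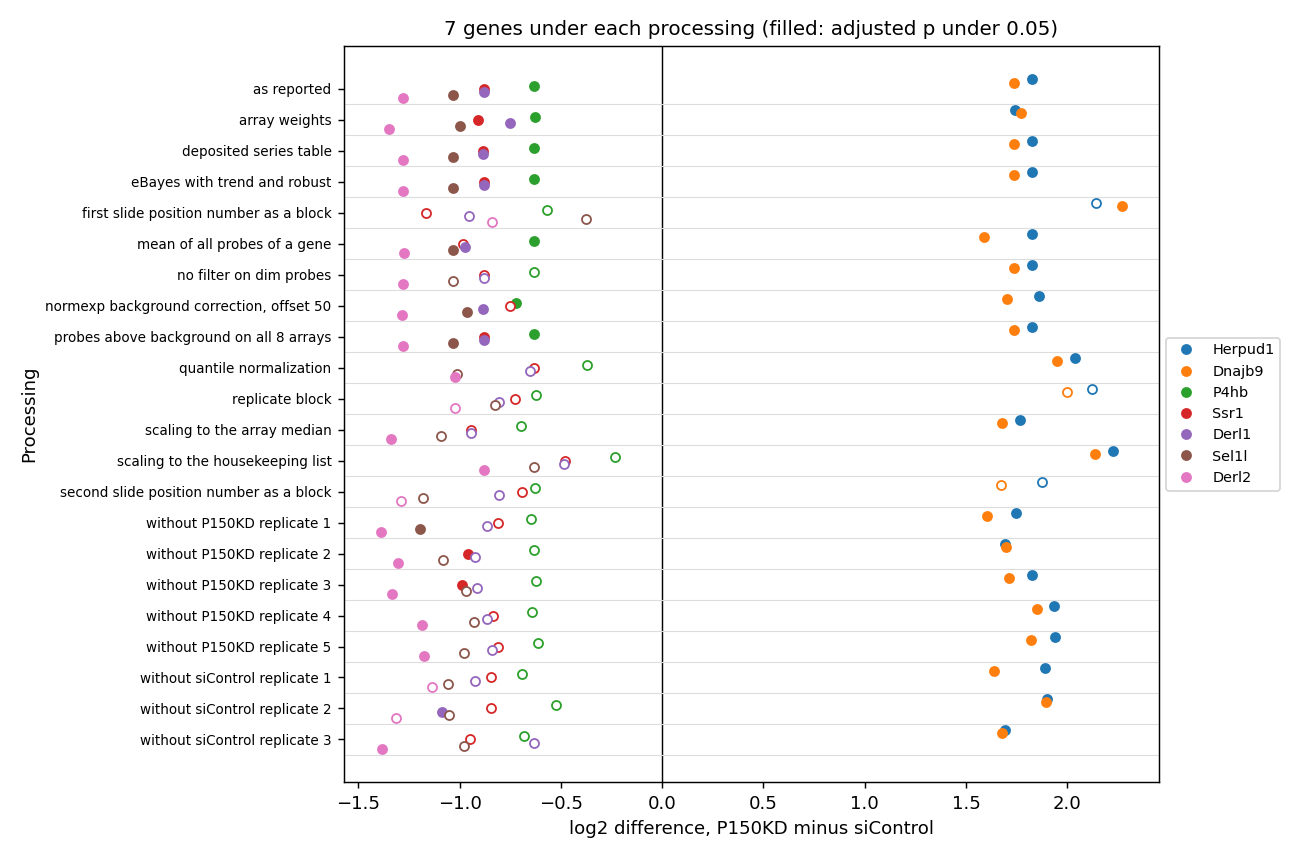
Log2 difference, P150KD minus siControl, of the 7 genes that passed the test under each way of processing the data, filled where the adjusted p was under 0.05. Herpud1 and Dnajb9 stay between 1.59 and 2.27 and the 5 genes that fell stay below 0.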

How the data were processed

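RNA of 8 morula samples was measured on one-colour arrays, 1 per sample, grouped by the siRNA named in the labels. The scans were read with Agilent Feature Extraction 10.5.1, per the submitters' processing notes. Its processed signal is a deposited intensity that, per the file headers, had the background subtracted and was detrended, with no scaling between arrays. Raw intensity columns and other 0 or 1 flags were used as deposited. The authors' deposited series table, in log2 values centred on each probe, served as an alternative. Names came from the RefSeq gene table through the probes' accessions (27235 of 55681 probes, 20660 symbols). Log2 signals were averaged over the spots of a probe, and each array was scaled to its 75th percentile (819 to 1304 in processed signal). The number of arrays limits the precision.

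Testing covered 30348 probes, those well above background on 3 or more of the 8 arrays, of which 4231 (13.9%) passed. P150KD was compared with siControl in limma 3.58.1 (R 4.3.3; lmFit, eBayes, 2-sided, without covariates). P-values were adjusted over these probes by the Benjamini-Hochberg method, with a threshold of 0.05. The brightest tested probe stood for its gene. Genes are named by a rule: all 35 members; array values for those past the threshold, the sensors, Xbp1, Hspa5, Hsp90b1 and members whose probes disagreed; of the further pathway lists up to 5 genes in each direction with the smallest p, plus Atf4, Ddit3, Atf6b and Ero1a; and Chaf1a. Array values of Derl3, Sec61g, Creld2, Sdf2l1, Hyou1, Atf4 and Fkbp10 were added after they were seen. The members and lists were chosen with earlier results of these data known. Alternatives were other background corrections, scalings, filters, estimators and blocks, and leaving out each array. All arrays lay on 1 slide, so their position numbers on it stood in for a slide block. The procedure was tested on simulated data. Promoters came from RefSeq. Tables were written in Python 3.11.15 (pandas 2.3.3, numpy 2.4.6), and array weights used statmod 1.5.0.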

Additional observations from a re-analysis of the deposited data

Results flagged for a closer look

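Each of the 34 genes was checked for a P150KD array far from the other 4, which chance gives in about 1 of 20 such groups. It found 1, Pdia3, a disulfide isomerase of glycoproteins, whose lowest P150KD array was replicate 2 at 5.24. The gap from that array to the next made up 0.817 of the range of the 5 arrays, above Dixon's critical value of 0.710. The 3 siControl arrays were too few for this check.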

How the results depend on the processing

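Of 713 values of the 34 tested members recomputed under 21 alternatives, 585 kept direction and side of the threshold, 68 kept the direction but lost the call, 19 gained it and 41 reversed, of which 0 were past the threshold. The causes were not tested. Against 4231 probes changed, 2 members risen and 5 fallen, trend and robust estimation gave 4 risen and 10 fallen (8.19% and 14.8% of all genes, against 6.65% and 10.5%); no filter on dim probes 1 fallen; quantile normalization 1 fallen; scaling to the array median 1 fallen; scaling to the housekeeping list 4 risen, 1 fallen and a median of 0.15; the first slide position number as a block 713 probes, 1 risen and 0 fallen; and the second 110 probes, 0 risen and 0 fallen. The first number puts P150KD replicate 1 with the 3 siControl arrays, so that fit compares 1 P150KD array with them. Called probes split into 1907 higher and 2324 lower, against 3003 and 747 with the housekeeping list and 2073 and 1485 with quantile normalization. Without 1 array there were 1706 to 3749 probes, 2 to 3 risen and 0 to 3 fallen, with 0 fallen and 1706 probes without siControl replicate 1, 2256 probes without siControl replicate 2 and 2172 without siControl replicate 3. Values that reversed, with those of the non-members Atf6b and Ero1a added, were, with array weights, -0.40 for Sdf2l1, -0.0015 for Pdia6 and -0.12 for Edem2; with the first slide position number, 0.34 for Pdia4, -0.12 for Edem2, 0.0148 for Edem3, -0.425 for Atf6b and 0.0914 for Ero1a; with normexp, -0.0009 for Hspa5; with the array median, -0.0171 for Eif2ak3, -0.0308 for Hspa5, -0.0479 for Manf, -0.0459 for Pdia6, -0.0214 for Edem1 and -0.0076 for Edem2; with the housekeeping list, 0.15 for Xbp1, 0.15 for Dnajb11, 0.0654 for Canx, 0.27 for Pdia4 and 0.12 for Edem3; and with the second slide position number, -0.0016 for Hspa5, -0.0919 for Manf, -0.0591 for Pdia6 and -0.24 for Edem2. With an array left out, the genes that reversed ranged from -0.0388 to 0.0767 (Hspa5), -0.0846 to 0.0816 (Manf), -0.0555 to 0.112 (Pdia6), -0.0668 to 0.16 (Eif2ak3), -0.20 to 0.30 (Edem1), -0.76 to 0.37 (Pdia4), -0.21 to 0.29 (Edem2), -0.72 to 0.0607 (Edem3), -1.40 to 2.97 (Sdf2l1) and -0.0050 to 0.71 (Atf6b).

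With the replicate block, 0 probes passed, 0 members rose and 0 fell; the samples share only a number, P150KD replicates 4 and 5 drop out, and Pdia4 (0.27), Edem2 (-0.37) and Atf6b (-0.62) reversed. Correlations of the deviations of same-numbered arrays were -0.014, -0.075 and -0.017. Herpud1 then had an adjusted p of 0.120 and Dnajb9 of 0.141. Dim probes such as Ern1 and Sdf2l1 limit what can be said of those genes.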

Other observations

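A second Dnajb11 probe was well above background on too few arrays to be tested. It read from -7.42 to -6.89 on the P150KD arrays, and -3.44, -7.33 and 0.03 on the siControl arrays.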
